A study of Mus musculus with 12 samples.

Results

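The genes examined here are 36 genes of the DNA damage response and of DNA repair, followed by chromatin accessibility in cultured mouse CD4+ T cells. An accessible region (a peak of the deposited count table) was counted to a gene when the nearest protein-coding gene model within 100 kb was one of the 36. This gave 89 of the 48443 peaks, at 35 of the 36 genes. A peak that overlaps several gene models was given to the listed gene, which concerned 14 of the 89 peaks. Prkdc, which encodes the catalytic subunit of the DNA-dependent protein kinase, had no peak: its model lies at chr16:15637444-15842239 (GRCm38.p6), and the nearest peak, at an end of Mzt2, is 20161 bp away.

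ATAC-seq marks open chromatin by the insertions that the transposase Tn5 makes in it. Naive CD4+CD44-CD62L+CD25- cells were sorted from spleens of wild-type C57BL/6 mice and stimulated for 68 h on plate-bound antibodies to CD3 and CD28 (1 µg/ml each). The 4 groups were Th17n with DFMO, Th17n with vehicle, iTreg with DFMO and iTreg with vehicle. Both received TGF-beta1 at 2 ng/ml; Th17n (non-pathogenic T helper 17) cultures also received IL-6 at 25 ng/ml, and iTreg (induced regulatory T cell) cultures did not. DFMO (difluoromethylornithine, 100 µM) blocks ornithine decarboxylase, the enzyme that starts polyamine synthesis. Each group held 3 libraries, 1 from each of 3 numbered animals, and all 12 cultures shared strain, stimulus and time. Cells were sorted for life, not for a lineage marker, so a culture can hold cells that did not take the named fate. In bulk libraries a larger share of cells with an open region and a more open region in each cell cannot be told apart.

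The DNA damage response begins with the kinases ATM, ATR and DNA-PK, which sense breaks and stalled replication forks and signal through CHEK1, CHEK2 and p53. A broken chromosome is then either joined end to end, under protection of its ends by 53BP1, RIF1 and shieldin, or resected and copied from the sister chromatid by BRCA1, BRCA2 and their partners. Separate machineries remove bulky lesions, mismatches, crosslinks and single-strand breaks. T cells depend on them while they rearrange receptor genes and during the rapid divisions that follow activation.

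Of the 36 genes, 30 have start windows in the RefSeq promoter table (GRCm38.p6, 300 bases each), and 30 of their 36 windows lay in a peak. The windows of 6 genes are shown because their start peaks carry the calls described below. Capitals mark 6 short motifs that were searched on both strands, of which 5 occur here: CCAAT (the NF-Y box), GGGCGG (the GC box), CCGGAAG (an ETS site), TGACGT (the core of the cAMP response element) and GGCGGGA (E2F-like). The windows had a rule of their own: the 4 genes whose start peak had the smallest adjusted p in a DFMO or lineage contrast (Shld1, Brca1, Ercc1 and Bard1), and Gadd45b for its high start-peak CPM. Gadd45a and Lig4, called for DFMO in both lineages, were added to the windows after their values were seen. Shld1 is not shown because its called peak lies 897 bp from the nearest Shld1 start, outside the start window. In order of print the windows lie at chr7:19344821-19345120 (+), chr10:80929841-80930140 (+), chr6:67037358-67037657 (-), chr8:9977631-9977930 (-), chr11:101551906-101552205 (-) and chr1:71102923-71103222 (-), all 5′ to 3′ on the gene's strand.
Ercc1: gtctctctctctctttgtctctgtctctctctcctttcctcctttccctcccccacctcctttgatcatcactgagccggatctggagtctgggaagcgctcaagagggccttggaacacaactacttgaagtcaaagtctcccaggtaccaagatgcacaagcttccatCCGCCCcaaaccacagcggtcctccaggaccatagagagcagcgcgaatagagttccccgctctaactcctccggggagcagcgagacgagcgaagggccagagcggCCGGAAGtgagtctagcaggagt
Gadd45b: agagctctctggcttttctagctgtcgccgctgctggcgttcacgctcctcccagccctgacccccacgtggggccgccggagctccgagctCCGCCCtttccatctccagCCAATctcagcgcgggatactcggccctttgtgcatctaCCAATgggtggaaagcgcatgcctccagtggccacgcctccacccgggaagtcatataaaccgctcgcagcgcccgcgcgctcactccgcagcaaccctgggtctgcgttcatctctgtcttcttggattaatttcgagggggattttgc
Gadd45a: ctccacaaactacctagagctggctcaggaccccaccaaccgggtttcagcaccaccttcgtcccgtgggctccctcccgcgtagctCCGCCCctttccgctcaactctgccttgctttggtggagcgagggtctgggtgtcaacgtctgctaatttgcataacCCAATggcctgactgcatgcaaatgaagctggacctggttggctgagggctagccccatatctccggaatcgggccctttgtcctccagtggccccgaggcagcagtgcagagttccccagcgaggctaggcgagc
Lig4: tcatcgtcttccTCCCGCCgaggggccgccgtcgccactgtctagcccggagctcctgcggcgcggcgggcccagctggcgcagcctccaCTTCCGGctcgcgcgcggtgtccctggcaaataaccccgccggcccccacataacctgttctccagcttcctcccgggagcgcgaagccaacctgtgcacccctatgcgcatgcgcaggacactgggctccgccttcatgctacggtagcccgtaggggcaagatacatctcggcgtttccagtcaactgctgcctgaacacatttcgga
Brca1: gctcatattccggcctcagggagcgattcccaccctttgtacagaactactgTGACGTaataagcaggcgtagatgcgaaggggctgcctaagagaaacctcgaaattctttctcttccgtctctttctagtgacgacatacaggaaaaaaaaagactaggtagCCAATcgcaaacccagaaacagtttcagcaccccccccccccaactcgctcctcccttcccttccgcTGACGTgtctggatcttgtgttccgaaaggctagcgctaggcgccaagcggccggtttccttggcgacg
Bard1: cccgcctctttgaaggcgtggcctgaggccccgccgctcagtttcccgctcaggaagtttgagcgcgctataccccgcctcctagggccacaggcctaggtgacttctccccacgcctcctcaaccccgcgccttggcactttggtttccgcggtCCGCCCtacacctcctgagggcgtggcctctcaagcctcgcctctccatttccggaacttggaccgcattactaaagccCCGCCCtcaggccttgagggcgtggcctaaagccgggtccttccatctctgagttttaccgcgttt

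The Brca1 window carries 2 TGACGT motifs and 1 CCAAT, and the Bard1 window 2 GGGCGG motifs. The Gadd45b window has 2 CCAAT boxes, against 1 in the window of Gadd45a, and each of these also has 1 GGGCGG. Among the 30 windows of these genes that lay in a peak, CCAAT was found in 53.3%, against 36.6% of the 12757 windows of all genes that lay in a peak. CCGGAAG was found in 36.7%, against 18.3% of all windows in a peak. GGGCGG was found in 63.3% and in 67.2%, TGACGT in 16.7% and in 12.1%, and GGCGGGA in 16.7% and in 22.5%. The sixth motif, TGANTCA (AP-1), was found in 3.33% and in 5.28%. GGGCGG and GGCGGGA can share letters. The windows in a peak had a median GC content of 59.2%, against 62.3% over all genes. These shares describe letters in a window and were not tested.

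Total counts per library ran from 1020937 to 6496550. Peaks at 6 Th17 marker genes (among them Il17a and Il17f) summed to 484 to 565 CPM (counts scaled to the library total) in Th17n with DFMO, 654 to 694 in Th17n with vehicle, 185 to 269 in iTreg with DFMO and 283 to 355 in iTreg with vehicle. Peaks at 6 Treg genes (among them Foxp3 and Ctla4) summed to 1076 to 1141, 1341 to 1425, 1098 to 1279 and 1361 to 1433 CPM in the same groups, so both lists were lower with DFMO and the Treg list did not separate the lineages. All 7 T cell genes listed had a peak (479.7 to 608 CPM in the 12 libraries). Of 6 B cell genes 2 had a peak, at a sum of 38.2 to 85.7 CPM, and of 6 cytotoxic and NK genes Cd8b1, Gzmb and Klrk1 had peaks, at a sum of 104 to 161 CPM, and Cd8a, Nkg7 and Ncr1 had none. All 6 myeloid genes had one, at a sum of 67.9 to 126 CPM. The share of counts at gene starts was 40.9 to 42.4% in Th17n with DFMO, 39.4 to 40.3% in Th17n with vehicle, 48.4 to 49.98% in iTreg with DFMO and 47.1 to 49.2% in iTreg with vehicle.

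Of the 89 peaks, 34 lay within 1 kb of a gene start, 7 within 1 kb of another end of the gene model, 26 further inside a model and 22 outside it. Peaks are named by gene and place, with a number where a gene has several of a kind. The share at starts was 38.2%, against 21.45% of all assigned peaks. The start peaks had a median of 45.3 CPM over the 12 libraries (6.53 to 186), the inside peaks 4.65 CPM (0.745 to 58.9) and the outside peaks 7.03 CPM (1.60 to 45.1). Fancd2, Rif1, Ddb2, Xpc and Nbn have no start window in the table, so their peak at a gene end stands in for it. Some starts serve a neighbour as well, as with Atm and Npat, Brca1 and Nbr1, Chek2 and Hscb, Lig4 and Abhd13, Mre11a and Ankrd49, or Trp53 and Wrap53. Accessibility there cannot be given to 1 of the genes.

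**Figure D1:**
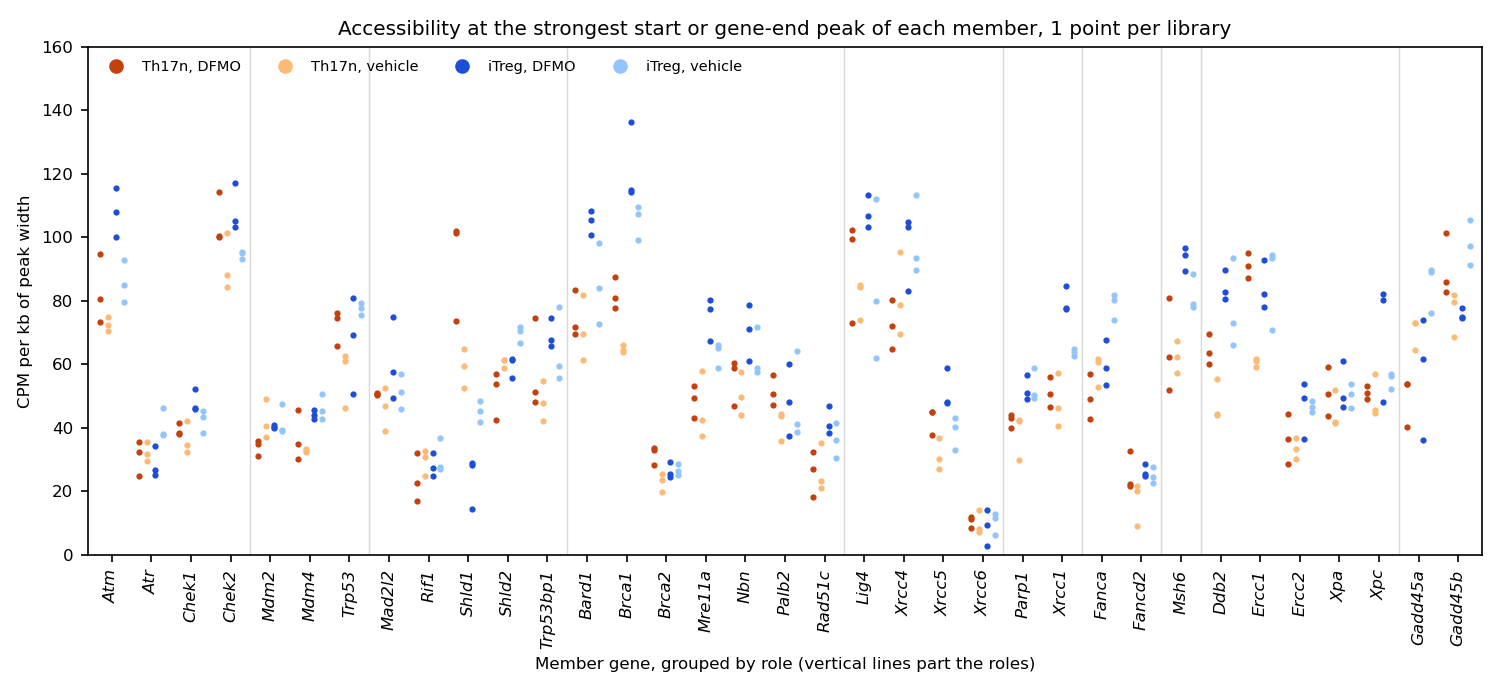
CPM per kb of peak width (y axis) at the strongest start or gene-end peak of each of the 35 genes (x axis, grouped by role), 1 point per library, colored by group (Th17n with DFMO, Th17n with vehicle, iTreg with DFMO, iTreg with vehicle). Mean levels over the 12 libraries run from 9.84 at Xrcc6 to 99.8 at Chek2, and Brca1 and Lig4 follow Chek2 at 93.6 and 91.3.

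Per kb of peak width, and averaged over the 12 libraries, the most accessible start peaks were those of Chek2 (99.8 CPM per kb), Brca1 (93.6) and Lig4 (91.3). The least accessible were Xrcc6 (9.84), Fancd2 (23.4) and Brca2 (26.9). The Xrcc6 peak lies 691 bp from the nearest Xrcc6 start and is shared with Desi1, so it does not give the level at that start. The Chek2 and Brca1 starts are shared with Hscb and Nbr1, so those levels cannot be given to 1 of the genes. Chek2 encodes a checkpoint kinase below ATM, and Xrcc6 encodes Ku70, a subunit of the ring that captures broken ends. At the Chek2 start the level was 105 CPM per kb in Th17n with DFMO, 91.3 in Th17n with vehicle, 108.5 in iTreg with DFMO and 94.5 in iTreg with vehicle, and none of the contrasts called it. The order differs by group: the Brca1 start had 82.0 CPM per kb in Th17n with DFMO, 64.8 in Th17n with vehicle, 122 in iTreg with DFMO and 105 in iTreg with vehicle, above Chek2 in both iTreg groups. In Th17n with DFMO, Shld1 start peak 2 (92.45) also stood above Brca1 and Lig4 (91.7).

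Differences between groups were tested with edgeR's quasi-likelihood test over all 43726 peaks that passed the low-count filter, with Benjamini-Hochberg adjustment and a threshold of 0.05. Of the 89 peaks, 81 passed the filter. A peak can pass the filter through its stronger group alone, which can favor peaks that differ, so the counts below are descriptions. In Th17n cells, DFMO raised 5 of the 81 peaks and lowered 4, or 11.1%, against 8.79% of all peaks tested (4.5% higher and 4.29% lower). In iTreg cells DFMO raised 3 and lowered 7, or 12.35%, against 8.56% of all peaks (3.83% higher and 4.73% lower). The median log2 change was 0.17 in Th17n cells (all peaks 0.01) and 0.01 in iTreg cells (all peaks -0.01). Both shares are near those of all peaks, so the results below are about single regions. At the 34 start peaks DFMO raised 3 and lowered 1 in Th17n, against 6.14% of all start peaks (4.39% higher and 1.75% lower), and raised 1 and lowered 3 in iTreg, against 7.03% (3.7% higher and 3.33% lower). At the 40 tested peaks inside or outside the genes it raised 2 and lowered 2 in Th17n, against 9.63% of all such peaks (4.39% higher and 5.23% lower), and raised 1 and lowered 4 in iTreg, against 9.04% (3.75% higher and 5.29% lower).

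The called peaks sit at 7 genes in Th17n cells (Mdm4, Shld2, Shld1, Lig4, Ercc1, Gadd45a and Atm) and at 9 in iTreg cells (Atm, Shld1, Shld2, Gadd45a, Gadd45b, Lig4, Mdm2, Trp53bp1 and Parp1). Both lineages called 6 peaks, which is 6 of the 9 calls in Th17n and 6 of the 10 in iTreg. In 3 of them the direction was the same: the Gadd45a start and the Atm inside peak were lower and Lig4 start peak 2 was higher. In the other 3 it was opposite: Shld2 inside peak 1 and Shld1 start peak 2 were higher in Th17n with DFMO and lower in iTreg with DFMO, and the Atm gene-end peak the reverse. Over all peaks, 1.71% were called in both lineages in 1 direction and 0.0938% in opposite ones.

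**Figure D2:**
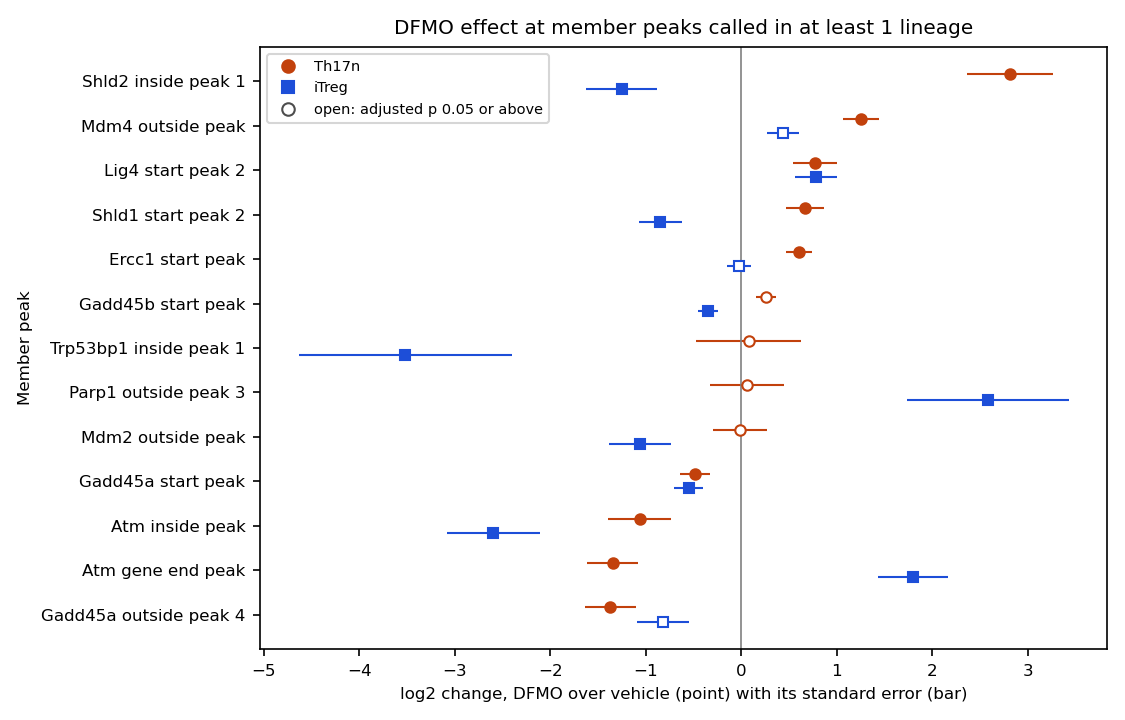
log2 change, DFMO over vehicle (x axis; bars are the standard error), at the 13 peaks called in at least 1 lineage (y axis), for Th17n (circles) and iTreg (squares); filled symbols have an adjusted p under 0.05. Shld2 inside peak 1 stands at 2.81 in Th17n and -1.25 in iTreg, the Atm gene-end peak at -1.35 and 1.80, and the Gadd45a start at -0.49 and -0.55.

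The kinases and checkpoint genes had 7 peaks, and Atm carried all of their DFMO calls. ATM is the kinase that answers chromosome breaks. Its gene-end peak (chr9:53435559-53436419, 703 bp past the 3′ end of the model) had 13.0, 20.3 and 18.9 CPM in Th17n with DFMO, against 34.3, 42.0 and 54.0 CPM in Th17n with vehicle. It had 8.80, 15.2 and 8.21 CPM in iTreg with DFMO, against 3.58, 2.58 and 3.24 CPM in iTreg with vehicle. So the DFMO libraries lay below all vehicle libraries in Th17n and above them in iTreg, with no overlap in either. The log2 change was -1.35 ± 0.27 (SE) in Th17n (edgeR, adjusted p = 0.00082) and 1.80 ± 0.37 in iTreg (adjusted p = 0.0010). With vehicle this region was 3.77 ± 0.32 log2 units higher in Th17n than in iTreg (adjusted p = 1.8e-13), the smallest p of any peak of these genes in that contrast. With DFMO the same difference was 0.63 and was not called.

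A second Atm region lay inside the gene (chr9:53452201-53452730). It had 11.4, 17.7 and 11.1 CPM in Th17n with DFMO, against 33.3, 26.6 and 27.6 CPM in Th17n with vehicle. In iTreg it had 2.35, 3.8 and 0 CPM with DFMO, against 7.67, 11.2 and 12.5 CPM with vehicle. All 6 libraries with DFMO lay below those with vehicle of the same lineage. The log2 change was -1.06 ± 0.33 in Th17n (adjusted p = 0.034) and -2.60 ± 0.49 in iTreg (adjusted p = 0.00039). The Th17n call was lost without any 1 of the libraries Th17n DFMO 1 or 3 and Th17n vehicle 1, 2 or 3 (adjusted p 0.067 to 0.145), and the iTreg call when all libraries were thinned to the smallest total (0.106). The Atm start (chr9:53536300-53537502), shared with Npat, had 99.8 ± 13.1 CPM in Th17n with DFMO and 87.3 ± 2.74 in Th17n with vehicle (SD, n = 3 each), and 129.7 ± 9.30 in iTreg with DFMO and 103 ± 8.12 in iTreg with vehicle. Its DFMO changes, 0.22 and 0.35 on the log2 scale, did not pass (adjusted p = 0.31 and 0.067).

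Atr, Chek1 and Chek2 had start peaks only, and none of the 5 contrasts called them. ATR answers stalled forks and CHEK1 is its main effector kinase. Their DFMO changes ran from -0.03 at Atr to 0.30 at Chek1 start peak 2 in Th17n, and from -0.51 at Chek1 start peak 2 to 0.21 at the Chek2 start in iTreg.

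At the p53 genes 9 peaks were tested, and DFMO changed 1 in each lineage. MDM2 and MDM4 are the partners that hold p53 in check. The Mdm4 outside peak (chr1:133033345-133034385), 2758 bp from the Mdm4 model, had 67.3, 48.0 and 46.9 CPM in Th17n with DFMO, against 19.6, 23.1 and 25.2 CPM in Th17n with vehicle. Its log2 change of 1.26 ± 0.19 had the smallest adjusted p of these genes in Th17n (1.13e-05), and every DFMO library lay above every vehicle library. The region overlaps or adjoins within 1 kb a pair of lysine tRNA genes (n-TKctt25 and n-TKctt26), so the nearest protein-coding gene is not its only neighbour. In iTreg it had 55.2, 66.4 and 56.3 CPM with DFMO, against 46.0, 43.4 and 44.1 CPM with vehicle. These groups did not overlap either, but the change of 0.44 was not called (adjusted p = 0.10), nor was the difference between the lineages (0.82, adjusted p = 0.088).

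The Mdm2 outside peak (chr10:117721396-117721879, 10638 bp away) had 7.04, 6.64 and 8.79 CPM in iTreg with DFMO, against 11.2, 15.9 and 20.0 CPM in iTreg with vehicle. The log2 change was -1.06 ± 0.32 (adjusted p = 0.030), against -0.01 in Th17n. The call was lost without any 1 of 5 libraries (iTreg DFMO 1, 2 or 3 and iTreg vehicle 2 or 3, adjusted p 0.064 to 0.196), in a fit of the iTreg groups alone (0.0505) and after thinning (0.105). The Trp53 gene itself, with 2 start peaks, kept 38.5 ± 2.99 CPM in Th17n with DFMO and 30.15 ± 4.77 in Th17n with vehicle at start peak 2, and 35.7 ± 8.16 in iTreg with DFMO and 41.3 ± 1.06 in iTreg with vehicle. Neither DFMO change there was called (log2 0.39 and -0.18).

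At 1 peak of Shld1 and 1 peak of Shld2, DFMO changed accessibility in opposite directions in the 2 lineages. Shieldin is the complex that 53BP1 and RIF1 recruit to shield broken ends from resection, with SHLD1, SHLD2 and MAD2L2 among its subunits. Of 13 peaks tested in this group, DFMO raised 2 and lowered 0 in Th17n and raised 0 and lowered 3 in iTreg by edgeR, with 3 and 4 peaks at an unadjusted p under 0.05. Over all peaks 4.5% were higher and 4.29% lower in Th17n, and 3.83% higher and 4.73% lower in iTreg. DESeq2 gave 2 and 0 in Th17n (13 peaks with an adjusted p), and 0 and 2 in iTreg (11 peaks).

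Shld2 inside peak 1 (chr14:34240793-34241450), 69067 bp from the start, had 11.7, 18.2 and 8.46 CPM in Th17n with DFMO, against 0, 2.31 and 1.76 CPM in Th17n with vehicle. In iTreg it had 3.52, 9.01 and 7.33 CPM with DFMO, against 13.8, 15.1 and 20.0 CPM with vehicle. The groups did not overlap in either lineage. The log2 change was 2.81 ± 0.45 in Th17n (adjusted p = 3.85e-05) and -1.25 ± 0.37 in iTreg (adjusted p = 0.025). The iTreg call was lost without any 1 of the libraries iTreg DFMO 1 or 3 and iTreg vehicle 2 or 3 (adjusted p 0.058 to 0.159) and after thinning (0.081). With vehicle the region was 3.20 ± 0.43 log2 units lower in Th17n than in iTreg (adjusted p = 4.1e-08), and with DFMO 0.86 higher, which was not called.

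Shld1 start peak 2 (chr2:132688607-132689260) lies 897 bp from the nearest Shld1 start. It had 66.3, 66.6 and 48.2 CPM in Th17n with DFMO, against 34.3, 38.8 and 42.3 CPM in Th17n with vehicle. Its iTreg values were 9.39, 19.0 and 18.5 CPM with DFMO, against 29.7, 27.3 and 31.5 CPM with vehicle. The groups did not overlap in either lineage. The log2 change was 0.67 ± 0.20 in Th17n (adjusted p = 0.025) and -0.85 ± 0.23 in iTreg (adjusted p = 0.012). The Th17n call was lost without any 1 of Th17n DFMO 1 or 2 and Th17n vehicle 1, 2 or 3 (adjusted p 0.089 to 0.189) and the iTreg call without iTreg DFMO 1 (0.109) or iTreg vehicle 3 (0.072). Thinning ended both calls (0.251 and 0.104).

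The peak over the Shld1 start itself did not follow. Shld1 start peak 1 had 10.6 ± 3.26 CPM in Th17n with DFMO and 13.6 ± 2.35 in Th17n with vehicle, and 15.3 ± 1.53 in iTreg with DFMO and 14.6 ± 0.815 in iTreg with vehicle. No contrast called it. The Shld1 outside peak had DFMO changes of 0.05 in Th17n and 0.99 in iTreg. Shld1 inside peaks 1 and 2 had 0.14 and 0.48 in Th17n, and -0.25 and 0.34 in iTreg. Shld2 inside peak 2 had 1.27 in Th17n and -1.61 in iTreg. These DFMO changes were not called. At the Shld2 start, shared with Glud1, the DFMO changes were -0.22 and -0.20 and were not called. Mad2l2, Rif1 and the Trp53bp1 start had DFMO changes of -0.29 to 0.29 in both lineages, none called. Trp53bp1 encodes 53BP1, and 1 weak region inside it was called in iTreg: Trp53bp1 inside peak 1 (chr2:121220138-121220438) had 0.587, 0 and 0 CPM with DFMO, against 2.05, 0.645 and 3.44 CPM with vehicle. That is 1 count against 24, and the ratio of 15.0 higher in vehicle has a 95% counting interval of 2.45 to 617. The call (adjusted p = 0.039) was lost without Th17n vehicle 2 (0.054), iTreg DFMO 2 (0.087), iTreg DFMO 3 (0.226) or iTreg vehicle 3 (0.291), and DESeq2 gave no adjusted p.

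**Figure D3:**
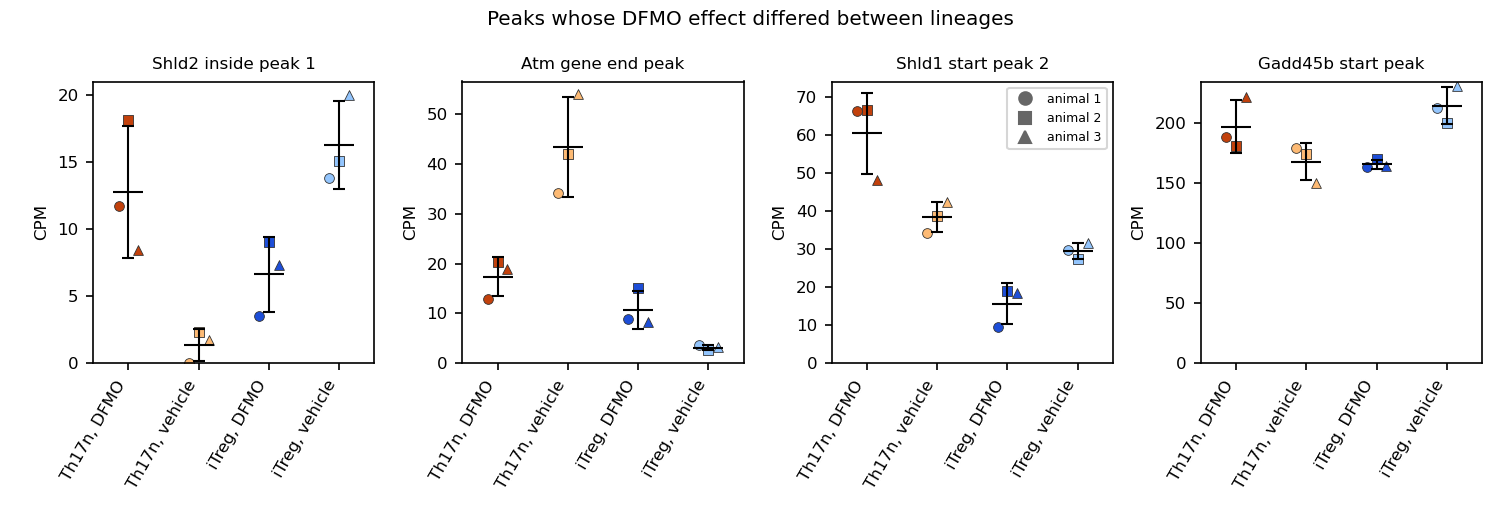
CPM (y axis) by group (x axis) at the 4 peaks whose DFMO effect differed between lineages, 1 symbol per library and animal; horizontal lines are means and bars the SD of 3. At Shld2 inside peak 1 Th17n with DFMO lies at 8.46 to 18.2 CPM and Th17n with vehicle at 0 to 2.31, while iTreg with DFMO lies below iTreg with vehicle.

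The difference between the DFMO effects of the lineages was itself tested, as an interaction term. It was called at 4 of the 81 peaks (4.94%), against 1.31% of all peaks tested, and in 3 of them the effect in Th17n was the more positive (0.835% of all peaks that way and 0.478% the other). Of these 3, 2 are start peaks, against 0.522% of all start peaks called (0.418% that way and 0.104% the other), and 1 is an inside peak, against 1.55% of all inside or outside peaks (0.932% that way and 0.618% the other). The 4 were Shld2 inside peak 1 (log2 difference 4.06 ± 0.58, adjusted p = 5.1e-05), the Atm gene-end peak (-3.15 ± 0.45, adjusted p = 5.1e-05), Shld1 start peak 2 (1.51 ± 0.30, adjusted p = 0.0044) and the Gadd45b start (0.61 ± 0.15, adjusted p = 0.026). The Shld2 and Atm calls held in every refit that left out 1 library and under every other setting tried. The Shld1 call was lost only after thinning to the smallest library (0.094).

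Gadd45a and Gadd45b are stress-inducible genes whose proteins act in growth arrest, stress kinase signalling and DNA demethylation. The Gadd45b start (chr10:80928701-80930891), printed above, had the highest CPM of all 89 peaks. It had 188, 181 and 222 CPM in Th17n with DFMO, against 179, 174 and 150.1 CPM in Th17n with vehicle. The iTreg libraries had 163, 170.3 and 164 CPM with DFMO, against 213, 199.9 and 231 CPM with vehicle. The groups did not overlap in either lineage, but only the iTreg change was called (-0.35 ± 0.11, adjusted p = 0.029), against 0.26 in Th17n. The iTreg call was lost without iTreg DFMO 1 (0.115), iTreg DFMO 3 (0.105) or iTreg vehicle 3 (0.165) and after thinning (0.055). The interaction was lost in 9 of the 12 refits that left out 1 library (adjusted p 0.0606 to 0.1945), which were any of the Th17n libraries, iTreg DFMO 1 or 3, or iTreg vehicle 3. It was also lost with no filter on low counts (0.059) and after thinning (0.088).

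The Gadd45a start (chr6:67036314-67037652), next to the non-coding gene E230016M11Rik, fell with DFMO in both lineages. It had 71.8, 71.8 and 54.0 CPM in Th17n with DFMO, against 86.2, 97.7 and 97.8 CPM in Th17n with vehicle. Among iTreg libraries the values were 99.2, 48.4 and 82.3 CPM with DFMO, against 119, 120.2 and 102 CPM with vehicle. All DFMO libraries lay below those with vehicle of the same lineage, and iTreg DFMO 2 was the lowest of the 12. The log2 change was -0.49 ± 0.16 in Th17n (adjusted p = 0.043) and -0.55 ± 0.15 in iTreg (adjusted p = 0.016). The iTreg call was lost without iTreg DFMO 2 (0.165) or iTreg vehicle 2 (0.092). The Th17n call was lost without any 1 of Th17n DFMO 1, 2 or 3, Th17n vehicle 2 or 3 and iTreg vehicle 2 (0.052 to 0.170) and under DESeq2 (0.066). Thinning ended both (0.156 and 0.078).

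A distal region went the same way. Gadd45a outside peak 4 (chr6:67105298-67106107), 67891 bp from the gene, had 22.7, 18.2 and 6.51 CPM in Th17n with DFMO, against 41.1, 38.5 and 52.9 CPM in Th17n with vehicle. The log2 change of -1.37 ± 0.27 (adjusted p = 0.00055) was called in every refit. Assignment within 10 kb does not give this peak to Gadd45a. For iTreg the values were 15.8, 14.2 and 14.4 CPM with DFMO, against 18.4, 32.9 and 25.7 CPM with vehicle. These did not overlap, but the change of -0.82 was not called (adjusted p = 0.051). The other 4 Gadd45a outside peaks and the Gadd45b outside peak were not called for DFMO in either lineage.

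Among the end joining and excision genes, 1 of the 2 Lig4 start peaks rose with DFMO in both lineages, and the Ercc1 start rose in Th17n. LIG4 is the ligase that seals ends in end joining. Lig4 start peak 2 (chr8:9977540-9978136), shared with Abhd13, had 33.1, 31.2 and 30.6 CPM in Th17n with DFMO, against 20.6, 21.1 and 15.3 CPM in Th17n with vehicle. The iTreg levels were 39.9, 30.8 and 43.7 CPM with DFMO, against 26.1, 22.8 and 20.0 CPM with vehicle. Every DFMO library lay above the vehicle libraries of its lineage, and the log2 changes were alike: 0.77 ± 0.23 in Th17n (adjusted p = 0.027) and 0.78 ± 0.22 in iTreg (adjusted p = 0.017). The Th17n call was lost without any 1 of the 6 Th17n libraries (0.059 to 0.227), and the iTreg call without iTreg DFMO 3 (0.153) or iTreg vehicle 2 or 3 (0.064 and 0.116). Thinning ended both (0.284 and 0.246). Lig4 start peak 1 overlaps no other protein-coding model and had the higher mean level, 46.7 against 27.9 CPM over the 12 libraries. It was not called, with log2 changes of 0.20 in Th17n (edgeR, adjusted p = 0.58) and 0.41 in iTreg (adjusted p = 0.15). When ties were given to the model whose end is nearest, 1 call fewer was counted as higher in each lineage (4 in Th17n and 2 in iTreg).

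ERCC1 is the partner of the XPF nuclease that cuts beside bulky lesions. The Ercc1 start (chr7:19344277-19345502), printed above, had 111, 116 and 107 CPM in Th17n with DFMO, against 72.5, 75.6 and 74.9 CPM in Th17n with vehicle. The lowest library with DFMO lay well above the highest with vehicle, and the log2 change was 0.60 ± 0.13 (adjusted p = 0.0022), kept under every setting tried. Its iTreg levels were 95.7, 100.6 and 114 CPM with DFMO, against 86.9, 116 and 114 CPM with vehicle, which overlapped, with a change of -0.02. The difference between the lineages was not called (0.63, adjusted p = 0.067). With vehicle this start was 0.59 ± 0.13 log2 units lower in Th17n than in iTreg (adjusted p = 0.00022), and with DFMO it was 0.04 higher, not called.

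The remaining excision genes were not called for DFMO. XPC and DDB2 find bulky lesions, XPA checks them and ERCC2 is a helicase of TFIIH. The largest change among their start or gene-end peaks was at the Ddb2 gene end, with 69.9 ± 5.18 CPM in Th17n with DFMO and 52.0 ± 7.13 in Th17n with vehicle (SD, n = 3 each), or 0.44 on the log2 scale (adjusted p = 0.059).

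The homologous recombination genes had no DFMO call: 0 of 14 peaks tested in either lineage by edgeR, with 3 at an unadjusted p under 0.05 in each lineage. DESeq2 called 0 of the 13 peaks to which it gave an adjusted p in Th17n, and 0 of 11 in iTreg. At the shares of all peaks called, 8.79% and 8.56%, a count of 0 among 14 is near the background. BRCA1 and BARD1 form a ubiquitin ligase that promotes resection, PALB2 and BRCA2 act in the search for the sister copy, and MRE11 and NBN form the break-sensing complex with RAD50. The Brca1 start, shared with Nbr1 (chr11:101551824-101553114), had 104, 113 and 100.3 CPM in Th17n with DFMO, against 82.3, 85.3 and 83.1 CPM in Th17n with vehicle. In iTreg cultures it had 176, 148 and 148 CPM with DFMO, against 141, 128 and 139 CPM with vehicle. The groups did not overlap in either lineage, yet neither change was called. The log2 change was 0.36 in Th17n (edgeR, adjusted p = 0.0502) and 0.23 in iTreg (adjusted p = 0.22). Ranges that did not overlap were found for 26 of the 81 peaks in Th17n and 27 in iTreg, against 29.6% and 23.6% of all peaks tested, so separation of 3 libraries from 3 is common in this table.

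PARP1 and XRCC1 act at single-strand breaks. Of their 7 peaks tested, only Parp1 outside peak 3 (chr1:180555152-180555865) was called, in iTreg, with 0, 4.74 and 1.76 CPM with DFMO, against 0, 0 and 0.809 CPM with vehicle. These are 16 and 4 counts in all, and the ranges overlapped. The call (log2 2.58 ± 0.85, adjusted p = 0.045) was lost without any 1 of 7 libraries (Th17n DFMO 3, Th17n vehicle 2 or 3, iTreg DFMO 2 or 3, iTreg vehicle 1 or 2; adjusted p 0.0507 to 0.330) and after thinning (0.068). The crosslink and mismatch repair genes Fancd2, Fanca and Msh6 had 4 peaks tested by edgeR. It called 0 of them for DFMO in either lineage, with 1 at an unadjusted p under 0.05, in iTreg. DESeq2 also called 0, and in iTreg gave an adjusted p at 2 crosslink peaks and 1 mismatch peak.

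Lineage separated these regions more often than DFMO. With DFMO, 14 peaks were higher and 15 lower in Th17n than in iTreg, or 35.8% of 81, against 37.2% of all peaks tested (22.6% higher and 14.7% lower). With vehicle, 13 were higher and 25 lower, or 46.9%, against 44.6% of all peaks (25.2% higher and 19.3% lower). Ranges did not overlap at 39 peaks with DFMO and at 46 with vehicle, against 44.2% and 51.4% of all peaks tested. The median log2 difference, Th17n over iTreg, was -0.15 with DFMO (all peaks -0.004) and -0.29 with vehicle (all peaks -0.07). Place in the gene divided the 2 directions. At the 34 start peaks, 1 was higher and 8 lower in Th17n with DFMO, against 29.4% of all start peaks called (2.29% higher and 27.1% lower). With vehicle 0 were higher and 16 lower by edgeR, against 36.6% of all start peaks (2.17% higher and 34.5% lower), with 20 at an unadjusted p under 0.05. DESeq2 gave 0 and 10 there, RLE size factors 0 and 12 and library totals alone 0 and 10. In every one of these scalings 33 of the 34 starts lay below 0 with vehicle and 25 of 34 with DFMO.

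Start peaks of all genes shifted as far. Their median difference was -0.29 with DFMO and -0.34 with vehicle, against -0.32 and -0.37 at the starts of these 36 genes. The share of all counts at gene starts was itself lower in the Th17n libraries, as given above, and its part in these differences was not tested. At the 40 tested peaks inside or outside the genes, 13 were higher and 4 lower in Th17n with DFMO, against 40.5% called over all such peaks (30.1% higher and 10.4% lower). With vehicle 12 were higher and 8 lower, against 47.9% (34.0% higher and 13.9% lower).

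**Figure D4:**
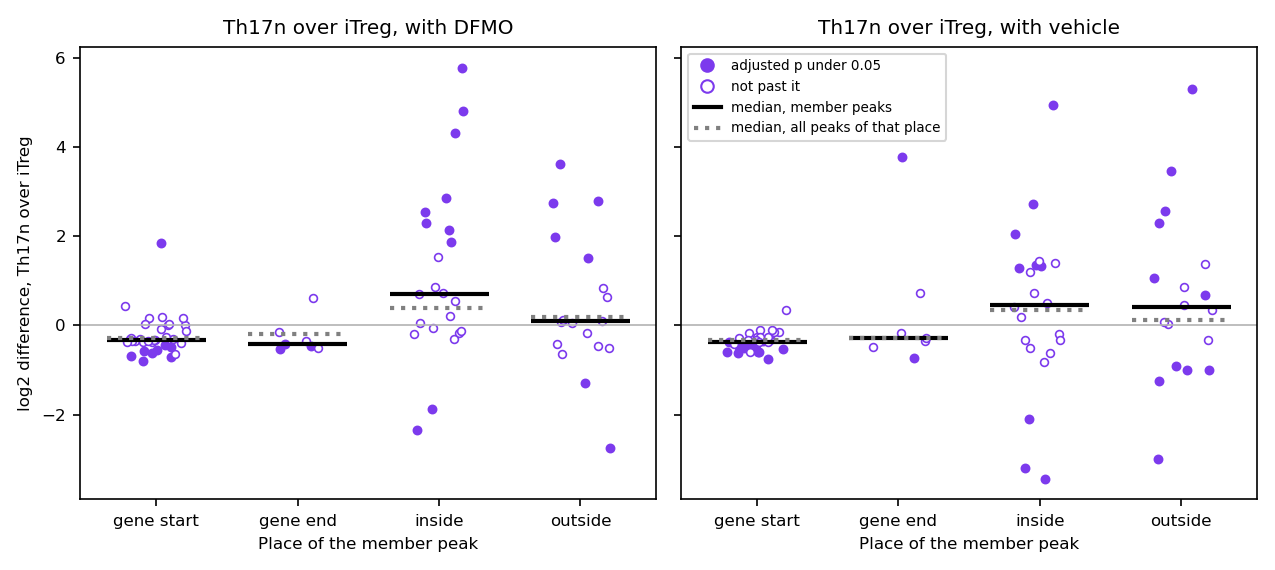
log2 difference, Th17n over iTreg (y axis), at each tested peak of the 36 genes by place (x axis), with DFMO on the left and with vehicle on the right; filled points have an adjusted p under 0.05, solid lines are medians of these peaks and dotted lines medians of all peaks of that place. The start peaks cluster below 0 (medians -0.32 and -0.37), close to the dotted line, and the inside and outside peaks spread from -3.43 to 5.78.

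The Brca1 start, with the values above, was lower in Th17n by -0.63 ± 0.12 log2 units with DFMO (adjusted p = 3.5e-05) and by -0.76 ± 0.12 with vehicle (adjusted p = 6.8e-07). It had the smallest p among the starts that were lower, and all 6 Th17n libraries lay below all 6 iTreg libraries. Other starts lower in Th17n under both treatments were those of Mre11a (-0.70 and -0.60), Rad51c (-0.79 and -0.62), Xrcc1 (-0.69 and -0.48), Msh6 (-0.56 and -0.43), Bard1 (-0.56 and -0.35), Xrcc4 (-0.49 and -0.38) and Atm (-0.44 and -0.32), with DFMO first. Mre11a had 48.6 ± 5.06 CPM in Th17n and 75.05 ± 6.80 in iTreg with DFMO, and 45.8 ± 10.7 in Th17n and 63.3 ± 3.87 in iTreg with vehicle. Starts called with vehicle alone were those of Ercc1, Gadd45b, Mdm4, Parp1, Ercc2, Fanca, Trp53 and Trp53bp1, at -0.43 to -0.59. That they were not called with DFMO does not show that the lineages differed less there. At Gadd45b the interaction was called, but that call was lost in 9 of the 12 refits that left out 1 library.

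The start peak that went the other way was Shld1 start peak 2. With DFMO it was 1.85 ± 0.22 log2 units higher in Th17n than in iTreg (adjusted p = 4.4e-09), and with vehicle 0.34 higher, not called.

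Inside Brca1, a region at chr11:101543425-101544603, 7352 bp from the start, was open mainly in Th17n. It had 44.5, 51.1 and 39.1 CPM in Th17n with DFMO, against 8.80, 9.01 and 8.5 CPM in iTreg with DFMO. With vehicle it had 20.6, 38.9 and 39.4 CPM in Th17n, against 10.2, 13.3 and 14.4 CPM in iTreg. The groups did not overlap, and the log2 differences were 2.30 ± 0.27 (adjusted p = 3.2e-09) and 1.36 ± 0.24 (adjusted p = 9.55e-06), the reverse of the direction at the Brca1 start. A second inside peak of Brca1 was higher in Th17n as well, by 1.88 with DFMO and 2.04 with vehicle.

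Outside Parp1 lay regions of both kinds. Parp1 outside peak 1 (chr1:180541280-180541611), 27280 bp from the gene, had 2.60, 2.16 and 0 CPM in Th17n with DFMO, against 11.2, 11.9 and 12.6 CPM in iTreg with DFMO. With vehicle it had 1.96, 2.62 and 0.587 CPM in Th17n, against 12.3, 14.6 and 15.6 CPM in iTreg. The log2 differences were -2.75 ± 0.50 (adjusted p = 2.1e-05) and -3.00 ± 0.45 (adjusted p = 4.7e-07). Parp1 outside peak 3, 13026 bp from the gene, was open in Th17n instead, with 11.4, 23.4 and 14.3 CPM in Th17n with DFMO and 10.8, 16.9 and 17.9 CPM in Th17n with vehicle, beside the iTreg values given above. Its log2 differences were 2.79 ± 0.51 with DFMO (adjusted p = 2.3e-05) and 5.31 ± 0.62 with vehicle (adjusted p = 1.5e-09). The Parp1 start differed by -0.35 with DFMO, not called, and by -0.56 with vehicle (adjusted p = 0.0058).

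Further distal and inside peaks were open mainly in Th17n. Xpa outside peak 1 (chr4:46197682-46197891), 1338 bp from the gene, had 6.17, 9.09 and 7.16 CPM in Th17n with DFMO, against 0, 0 and 1.17 CPM in iTreg with DFMO. With vehicle it had 17.6, 13.6 and 14.1 CPM in Th17n, against 2.05, 1.07 and 1.01 CPM in iTreg. The log2 differences were 3.63 ± 0.67 (adjusted p = 2.6e-05) and 3.45 ± 0.50 (adjusted p = 1.6e-07). Gadd45a outside peak 2 (chr6:67071477-67072181) was 1.99 higher in Th17n with DFMO and 2.29 ± 0.39 higher with vehicle (adjusted p = 4.8e-06), at 13.0 ± 3.17 CPM in Th17n and 2.69 ± 2.02 in iTreg with DFMO, and 16.3 ± 2.52 in Th17n and 2.98 ± 0.834 in iTreg with vehicle. The Atm inside peak was 2.87 ± 0.49 higher in Th17n with DFMO (adjusted p = 8.6e-06) and 1.33 higher with vehicle. Shld2 inside peak 2 (chr14:34274414-34274886) held 46 counts in Th17n with DFMO against 2 in iTreg with DFMO, a ratio of 24.0 with a 95% counting interval of 6.28 to 204, and its difference was called (adjusted p = 0.00010). With vehicle it was 1.45 log2 units higher in Th17n, not called. Mre11a inside peak held 68 counts in Th17n with vehicle against 2 in iTreg with vehicle, a ratio of 35.96 with an interval of 9.58 to 303. Brca2 inside peak held 15 counts in Th17n with DFMO against 0 in iTreg with DFMO, at least 3.74-fold higher by the lower 95% counting limit. With 3 counts set for the whole iTreg group in place of 0, the ratio was 5.22. Inside Xrcc5, which encodes Ku80, 2 peaks went the other way: inside peak 1 was lower in Th17n by -1.88 with DFMO and -2.10 with vehicle, and inside peak 3 by -2.34 and -3.43. The 16 named lineage calls, 8 in each treatment, all held without each library in turn and in every other fit that tested them. For Shld2 inside peak 2 with DFMO 6 other fits gave a value, against 7 for the rest. Assignment within 10 kb leaves out Parp1 outside peaks 1 and 3 and Gadd45a outside peak 2.

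Further genes of the pathway, in 8 lists of related functions, had 333 peaks, of which 302 were tested. With DFMO 14 rose and 10 fell in Th17n, and 18 rose and 14 fell in iTreg, beside 8.79% and 8.56% called over all peaks. The lists were chosen with earlier results of these data known. Among p53 targets, a peak inside Sesn1, a stress-induced inhibitor of mTORC1 signalling, was lower with DFMO in both lineages, at 4.55 ± 1.13 CPM in Th17n with DFMO against 13.3 ± 0.643 with vehicle, and at 4.36 ± 0.886 CPM in iTreg with DFMO against 15.9 ± 6.92 with vehicle (log2 -1.58, adjusted p = 0.0068, and -1.90, adjusted p = 0.00085). A peak outside Gadd45g, the third gene of the Gadd45 family, was lower in Th17n (-1.04 ± 0.18, adjusted p = 0.00017), and a peak outside Bbc3, which encodes the death protein PUMA, was lower in iTreg (-1.15 ± 0.26, adjusted p = 0.0027). The Gadd45g peak (chr13:51935764-51936900) lies far beyond 10 kb from the Gadd45g model, which ends at 51848475. It was also lower in iTreg, at 44.8 ± 10.6 CPM with DFMO against 71.3 ± 7.31 with vehicle. In Th17n the Bbc3 peak had 17.2 ± 2.79 CPM with DFMO against 21.8 ± 3.02 with vehicle. In the p53 list as a whole 2 peaks were higher and 3 lower of 65 in Th17n, and 2 higher and 6 lower in iTreg. These are 7.69% and 12.3% of the list, against 8.79% and 8.56% of all peaks.

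Of the 302 peaks, 4.64% were higher with DFMO in Th17n and 5.96% in iTreg, against 4.5% and 3.83% of all peaks. Among them were starts of repair genes outside the 36. The Ercc4 start, which serves the XPF partner of ERCC1, had 72.1 ± 9.60 CPM in Th17n with DFMO against 48.1 ± 4.12 with vehicle, and 92.0 ± 5.60 CPM in iTreg with DFMO against 58.1 ± 10.3 with vehicle. Its log2 changes were 0.63 ± 0.15 (adjusted p = 0.0063) and 0.71 ± 0.15 (adjusted p = 0.0011). In the nucleotide excision list, 1 of 36 peaks was higher in Th17n (2.78%) and 4 in iTreg (11.1%), and 0 were lower in either. Of the end joining and break signalling list, 4 peaks of 20 were higher in Th17n and 0 lower by edgeR (5 at an unadjusted p under 0.05), and 2 and 0 by DESeq2. In iTreg 1 was higher and 0 lower by edgeR (6 at an unadjusted p under 0.05), and 1 and 0 by DESeq2. DESeq2 gave an adjusted p at 21 peaks of this list in Th17n and at 17 in iTreg. Over all peaks 4.5% were higher in Th17n and 3.83% in iTreg. The Th17n calls by edgeR include the start of Nhej1, which encodes the end joining factor XLF (0.62 ± 0.16, adjusted p = 0.0073), and the gene-end peak of H2ax, the histone that ATM marks at breaks (0.69 ± 0.13, adjusted p = 0.00030). The Blm start, of a helicase used in recombination, was higher in Th17n (0.61 ± 0.15, adjusted p = 0.0087), and a peak inside Rad51b was lower (-2.30 ± 0.41, adjusted p = 0.00021). In their recombination list, 4 peaks of 62 were higher in Th17n and 2 lower. These are 6.45% and 3.23%, against 4.5% and 4.29% of all peaks.

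In iTreg a peak inside Fanci, whose product pairs with FANCD2, was higher with DFMO, at 27.7 ± 10.6 CPM against 8.21 ± 1.94 with vehicle (1.81 ± 0.28, adjusted p = 2.4e-05). Its interaction (-1.34 ± 0.37, adjusted p = 0.049) was the only one called among the 302 peaks. Peaks outside Fance and inside Fancc were lower in Th17n (-0.90, adjusted p = 0.012, and -1.66, adjusted p = 0.0074), and Tdp1, an end-cleaning enzyme of single-strand break repair, had a lower inside peak in Th17n (-2.18 ± 0.46, adjusted p = 0.0014). The Fance peak was also lower in iTreg, at 20.5 ± 1.34 CPM with DFMO against 39.1 ± 2.09 with vehicle. In iTreg the Fancc and Tdp1 peaks were weak, at 2.51 and 0.94 CPM with DFMO against 1.99 and 1.53 with vehicle. Between lineages, 63 of the 302 peaks were higher and 64 lower in Th17n with DFMO, and 75 higher and 86 lower with vehicle. Over all peaks 22.6% were higher and 14.7% lower with DFMO, and 25.2% and 19.3% with vehicle.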

How the data were processed

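ATAC-seq libraries measured chromatin accessibility, 3 in each of 4 groups and 12 in all. The authors deposited raw read counts per peak in 1 table over all samples, per the file headers. Coordinates are on mm10, per the submitters' processing notes; whether starts count from 0 or 1 is not given in the sources used here. Per the submitters' processing notes, Trimmomatic, FastQC, Bowtie2 and MACS2 were used. Their versions and settings, and whether peaks were called on pooled samples, were not found there.

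Peaks were assigned to RefSeq GRCm38.p6 protein-coding models (46089 of 48443 within 100 kb); exon and intron were not resolved. Counts were filtered with filterByExpr (minimum count 10), scaled by TMM and fitted to 4 group means in all 12 libraries with edgeR 4.0.16 (R 4.3.3) quasi-likelihood tests and Benjamini-Hochberg adjustment. Tables were made with Python 3.11.15, pandas 2.3.3 and scipy 1.17.1, and the fit was tested on simulated data. Levels are CPM by library total, as mean ± SD (n = 3); counting intervals are exact, at 95%, and cover counting error only.

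The labels give each library an animal identifier, and each of the 3 identifiers occurs once in every group, which pairs the libraries. Deviations of same-animal libraries correlated at -0.0548 to 0.0747 over 18 pairs, and 7 of 12 libraries correlated best with one of their own animal. Alternatives were DESeq2 1.42.0, RLE and library-total scaling, no filter, thinning, an animal block, the compared groups alone, other assignments and leaving out each library.

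The members and lists were chosen with earlier results of these data known. The peaks described in detail were all those called for DFMO or the interaction and, in each lineage contrast, the 8 calls with the smallest p; other pathway genes were at most 2 per list and contrast by the same order. Further lineage peaks (Mre11a, Brca2 and Xrcc5 inside) were chosen after their values were seen. Library totals differed 6.36-fold, so low peaks are measured with less precision in the shallow libraries.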

Additional observations from a re-analysis of the deposited data

Results flagged for a closer look

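At 4 peaks the effect of DFMO differed between Th17n and iTreg by a test of the difference itself (edgeR interaction term, effect in Th17n minus effect in iTreg, log2). The difference was 4.0626 at Shld2 inside peak 1, where the group means were 12.8 CPM in Th17n with DFMO, 1.36 in Th17n with vehicle, 6.62 in iTreg with DFMO and 16.3 in iTreg with vehicle. It was -3.1464 at the Atm gene-end peak, 1.5126 at Shld1 start peak 2 and 0.6095 at the Gadd45b start. In the first 3 the change in each lineage was called as well, in opposite directions. At the Gadd45b start only the iTreg change was called.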

How the results depend on the processing

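Of 732 recomputed values of 39 named results, 655 kept their direction and side of the threshold, 77 kept the direction and lost the call, and 0 reversed; 24 results never lost the call. Leaving out 1 library accounted for 61 losses and thinning to the smallest library for 13. With the animal as a replicate block no named call changed: the counts higher and lower were 5 and 4 for DFMO in Th17n, 3 and 7 for DFMO in iTreg, 13 and 15 for lineage with DFMO, 12 and 26 for lineage with vehicle, and 3 and 1 for the interaction. Thinning left 3 peaks higher and 3 lower with DFMO in Th17n, and 1 higher and 1 lower in iTreg. By lineage it left 9 higher and 6 lower with DFMO, and 8 higher and 12 lower with vehicle. For the interaction it left 1 higher, and the lower call at the Atm gene end was kept. A fit of the compared groups alone gave 9 higher by lineage with DFMO, and assignment within 10 kb gave 8 higher with vehicle. Without 1 library at a time, counts higher and lower ran 3 to 7 and 2 to 4 (DFMO in Th17n), 1 to 4 and 2 to 8 (DFMO in iTreg), 11 to 17 and 11 to 17 (lineage with DFMO), 9 to 14 and 13 to 28 (lineage with vehicle; 13 without Th17n vehicle 3), and 2 to 5 and 1 to 1 (interaction; 5 higher without iTreg DFMO 2). Causes were not tested, other than that thinning removes counts. Over all peaks, thinning gave 842 higher and 948 lower for DFMO in Th17n (1968 and 1875 in the full data), 576 and 735 in iTreg (1674 and 2070), 6071 and 3255 by lineage with DFMO (9863 and 6415), 6349 and 3807 with vehicle (11027 and 8457) and 107 and 54 for the interaction (365 and 209). The interaction split was 285 and 251 with RLE and 263 and 243 with DESeq2. A fit of the compared groups alone called 2579 and 2988 in Th17n and 1361 and 1372 in iTreg. No scaling moved the median of all peaks by more than 0.0793 (log2). Assigning ties to the nearest model end, chosen after seeing the data, left 80 peaks, and assignment within 10 kb left 74.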
